A study of Homo sapiens with 22 samples.

Results

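The 46 interferon-stimulated genes described here, taken by symbol with no measured value in the rule, were followed in RNA-seq of 2 acute myeloid leukemia (AML) cell lines exposed to FP54, a PROTAC that degrades the RNA demethylase FTO. All 46 symbols were present among the 20411 protein-coding genes of each table. A mean of at least 1 RPKM (reads on a gene, scaled by its exon length and by library depth) over the 6 libraries of a cell line was required for a test, and 30 members met it among MOLM-13 libraries and 39 among NB4 libraries. The same 30 members were tested in both lines, 9 others were tested in NB4 cells alone, and 7 were below this level in both.

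MOLM-13 is a KMT2A-rearranged AML line with an internal tandem duplication of FLT3, and NB4 is an acute promyelocytic leukemia line with the PML-RARA fusion. Each line had 3 libraries from cells given 2 μM FP54 for 48 hours and 3 libraries from cells given the solvent DMSO. No interferon treatment is named in the labels or methods. The labels give every sample the genotype WT and number the replicates 1 to 3, without saying whether these came from separate cultures, so p-values measure the spread between libraries, which may be technical. Both lines are single cultured cell populations, without the other blood and stromal cells that make or receive interferon in a patient.

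Cells that bind type I interferon activate the kinases JAK1 and TYK2, which phosphorylate STAT proteins such as STAT2, and STAT2 and IRF9 are subunits of the complex ISGF3. ISGF3 binds the interferon-stimulated response element (ISRE) in promoters and turns on genes whose products detect viral RNA, block viral entry and replication, or damp the response itself. Type II interferon acts through another element, the gamma-activated site (GAS).

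Depth on genes was 16313396 to 17362379 reads for the MOLM-13 DMSO libraries, 5836560 to 19207419 for the MOLM-13 FP54 libraries, 20662774 to 22349822 for the NB4 DMSO libraries and 10602309 to 13079301 for the NB4 FP54 libraries. The myeloid markers CD33, SPI1 and PTPRC were above 1 RPKM in both lines, of the 4 MLL-linked genes HOXA9, MEIS1 and FLT3 had higher DMSO means in MOLM-13 cells (FLT3 74.0 against 5.67 RPKM, the other two below 1 in NB4 cells) and HOXA10 a lower one (7.30 against 13.2 RPKM), and erythroid markers were at or near 0. ELANE, one of the 10 myeloid markers, was listed below 1 RPKM in NB4 cells. The 4 B cell markers summed to 0.465 to 1.14 RPKM over the MOLM-13 libraries and 1.14 to 1.86 over the NB4 libraries. The 4 markers of stroma and epithelium summed to 4.56 to 8.57 RPKM in MOLM-13 cells and 19.0 to 22.9 in NB4 cells. KRT18, one of these 4, had a mean of 6.13 RPKM in MOLM-13 cells. Mean RPKM over 400 olfactory receptor genes, which these cells do not use, was 0.00175 to 0.00387 in the NB4 DMSO libraries and 0.0509 to 0.0544 in the NB4 FP54 libraries, against 0.00381 to 0.00833 over all MOLM-13 libraries.

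To see what the members share in sequence, their RefSeq promoters (GRCh38.p14, 250 bases before to 50 after the start) were searched on both strands for the ISRE core (GAAA, any 2 bases, GAAA) and for the GAS pattern (TTC, any 3 bases, GAA). Promoters were listed for 37 of the 46 members, all but IFIT2, IFITM2, MX2, OAS2, OASL, USP18, IRF7, TRIM22 and LY6E. The ISRE core was found in 26 of these 37 members (70.3%), against 1195 of 27305 genes in the promoter table (4.38%). GAS letters were found in 12 members (32.4%), against 9.38% of all genes, and in 5 of them (BST2, EPSTI1, IFI27, IFITM1 and MX1) the 2 motifs overlapped by at least 1 base. No ISRE core was found in the windows of ADAR, CMPK2, HERC6, IFI35, IRF9, OAS1, SAMD9L, SP110, STAT2, UBE2L6 and XAF1, which says only that these letters are absent there. A match describes the letters and does not show that a factor binds.

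The windows below, 30 bases each in the direction of the gene with the ISRE core in capitals, are shown for members that the results turn on: strong responders in both lines or in NB4 cells (IFI6, ISG15, OAS3, RSAD2), the adjacent IFITM1 and IFITM3, HERC5, which was called in neither line, and PARP9, whose element is also in the promoter window of DTX3L.
IFI6: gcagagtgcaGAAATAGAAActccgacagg
ISG15: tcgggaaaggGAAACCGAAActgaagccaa
OAS3: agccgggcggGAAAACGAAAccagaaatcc
RSAD2: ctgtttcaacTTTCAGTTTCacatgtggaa
IFITM1: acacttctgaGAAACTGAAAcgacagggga
IFITM3: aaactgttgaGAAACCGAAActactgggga
HERC5: aaacattatgTTTCGTTTTCcactggagct
PARP9: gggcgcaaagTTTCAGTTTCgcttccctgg
These windows lie at chr1:27672266-27672295 (minus strand), chr1:1013380-1013409 (plus), chr12:112938452-112938481 (plus), chr2:6877622-6877651 (plus), chr11:314024-314053 (plus), chr11:320876-320905 (minus), chr4:88457035-88457064 (plus) and chr3:122564322-122564351 (minus). The core began 93 bases before the start of IFI6, 107 before ISG15, 12 before OAS3, 145 before RSAD2, 6 before IFITM1, 35 before IFITM3, 74 before HERC5 and 41 before PARP9. Among members with a promoter entry it was in 3 of 8 called higher in MOLM-13 cells and 11 of 15 tested there and not called higher, and in 13 of 21 called higher in NB4 cells and 7 of 9 not called higher.

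In NB4 cells, 27 of the 39 tested members were higher with FP54 and 0 were lower, by limma on log2(RPKM + 0.1) with the study's cutoff, a p below 0.01 and a change of 0.5 or more on the log2 scale in either direction. Over all 9853 genes tested in NB4 cells, 18.6% were called higher and 10.7% lower, against 69.2% of the tested members called higher. The median log2 fold change was 0.92 over the tested members and 0.07 over all genes. At an unadjusted p below 0.05, 33 members were higher and 0 lower, a rule for which no share of all genes was counted. With limma-voom on recovered reads 27 members were called higher and 0 lower, against 19.15% and 10.71% of all genes. Quantile normalization shifted the median of all NB4 genes by −0.10 and called 12.99% of all genes higher and 13.83% lower, with 24 members higher and 0 lower. In a culture, more transcript per cell and more cells of a state that expresses it cannot be told apart. All 27 also passed an adjusted p below 0.05, which 19.1% of all genes did upward and 10.7% downward at the same minimum fold. In 32 of the 39 members every FP54 library lay above every DMSO library (34.3% of all genes) and in 1, MX2, every FP54 library lay below (26.2% of all genes).

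In MOLM-13 cells, 10 of the 30 tested members were higher with FP54, 3 were lower and 17 were not called, against 9.3% of all 9710 genes called higher and 9.04% called lower. The share called higher was thus 33.3%, while the share called lower, 10.0%, was near the background. The 10 and the 3 each had an adjusted p below 0.05 as well (9.22% and 8.95% of all genes). The median log2 fold change over the members was 0.38, against 0.00 over all genes. The groups did not overlap in 13 members with FP54 above DMSO (20.2% of all genes) and in 3 with FP54 below (17% of all genes). A DMSO mean below 1 RPKM was found for 3 of the 30 (IFIT1, OAS1 and HERC6) and, in NB4 cells, for 2 of the 39 (IFITM3 and RSAD2), so these passed the minimum through the FP54 libraries. Without them the counts were 8 higher and 3 lower of 27 in MOLM-13 cells, and 25 higher of 37 in NB4 cells.

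**Figure D1:**
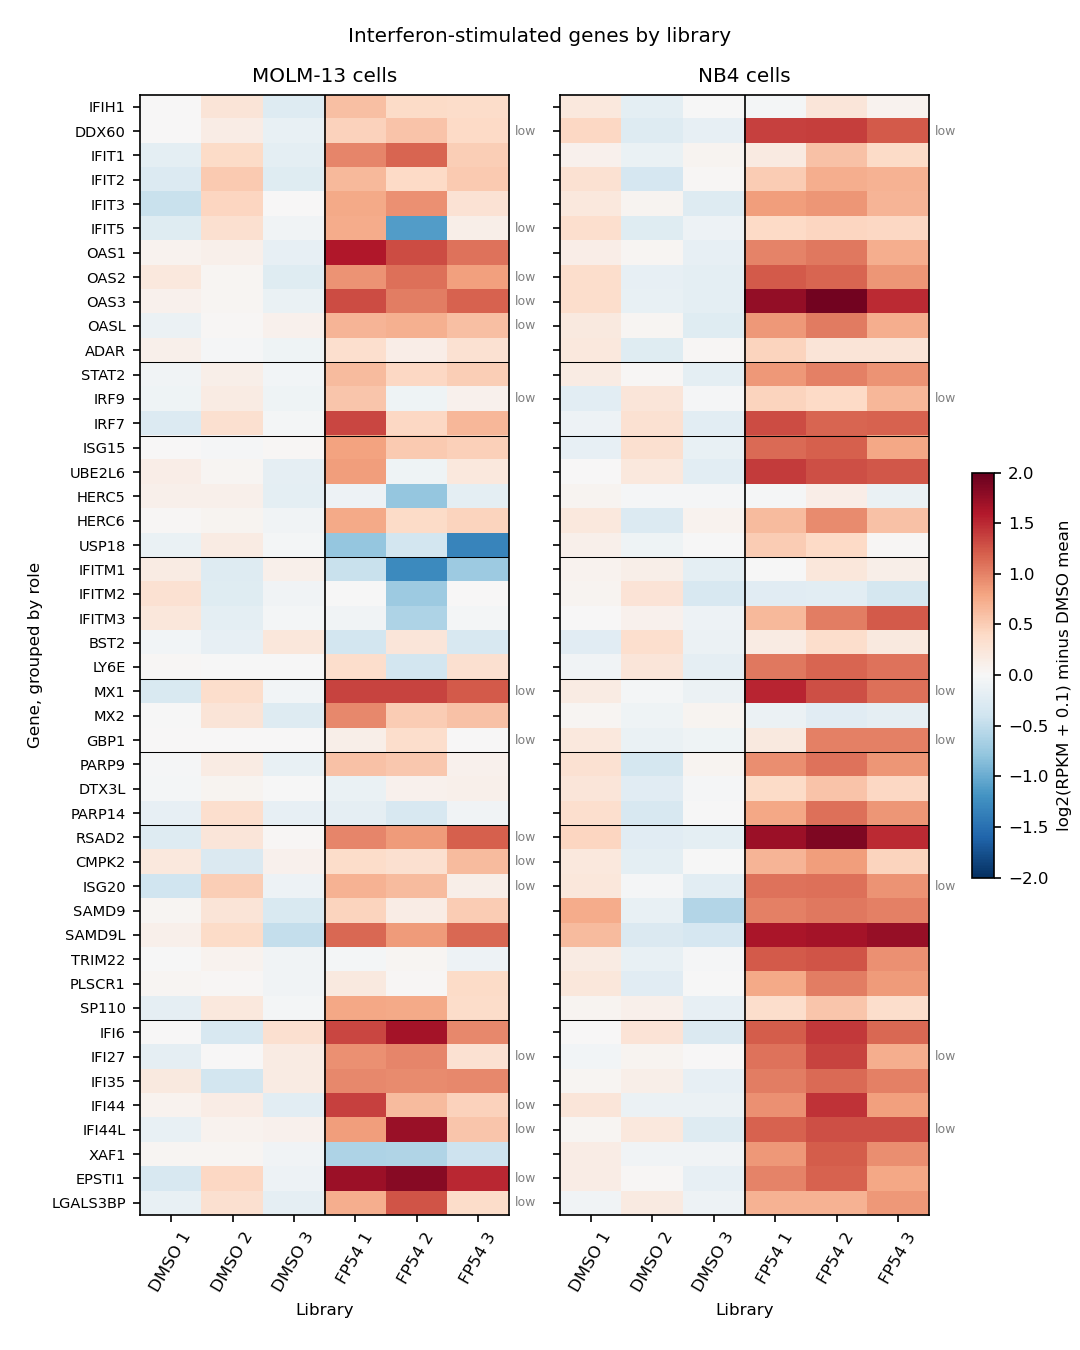
Each cell is log2(RPKM + 0.1) of one library (columns, 6 per cell line) minus the mean of the 3 DMSO libraries of that line, for all 46 genes grouped by role, with "low" beside genes under a mean of 1 RPKM. Most rows are red in all 3 NB4 FP54 libraries, while the MOLM-13 FP54 columns hold red rows such as OAS1, IFI6 and MX1 and blue rows such as USP18, IFITM1 and XAF1.

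Proteins that recognize viral RNA were the largest group, with 11 members. IFIH1 (the RNA sensor MDA5), the helicase DDX60, the IFIT proteins that bind foreign RNA ends, the OAS enzymes that make the messenger of RNase L and ADAR, which edits double-stranded RNA, belong here. In NB4 cells 6 of the 10 tested were higher (OAS3, OAS2, OAS1, OASL, IFIT3 and IFIT2), and in MOLM-13 cells 2 of the 6 tested were higher (OAS1 and IFIT1). OAS3 in NB4 cells measured 2.93, 2.04 and 1.98 RPKM with DMSO and 7.99, 8.98 and 6.56 RPKM with FP54. All 3 treated libraries were above all controls, and the log2 fold change of 1.73 ± 0.16 (SE, n = 3 libraries per group), adjusted p = 1.66e-05 was the largest on this scale of any member tested in that line, while the ratio of means was 3.39 for OAS3 and 3.65 for RSAD2. In MOLM-13 cells OAS3 was below the minimum, at 0.101, 0.0952 and 0.0735 RPKM in the DMSO libraries and 0.370, 0.285 and 0.327 in the FP54 libraries, again without overlap but resting on 23 to 30 reads against 30 to 128.

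The MOLM-13 values of OAS1 were 0.655, 0.674 and 0.540 RPKM in controls and 2.08, 1.67 and 1.43 RPKM after FP54. The groups were separate, with a log2 fold change of 1.33 ± 0.23 (SE), adjusted p = 0.00545, the largest on this scale among MOLM-13 members tested. With a DMSO mean of 0.623 RPKM, OAS1 entered this test only through its FP54 libraries. The ratio of means was 2.78 for OAS1. Larger ratios were found for untested members, among them IFI27 (6.51, on 0 to 9 reads), IFI44L (4.48), OAS3 and EPSTI1 (3.65 each). RPKM of OAS1 in NB4 cells came to 3.37, 3.16 and 2.74 (DMSO) and 6.26, 6.51 and 5.19 (FP54). Here too the libraries did not overlap, from a higher starting level and with a log2 fold change of 0.93 ± 0.12 (SE), adjusted p = 0.00016. OAS1, OAS3 and OAS2 lie side by side within 106 kb at chr12:112905856-113011723 (hg38), and in NB4 cells all 3 rose, by 0.93, 1.73 and 1.09 on the log2 scale.

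In MOLM-13 cells IFIT1 was at 0.681, 1.06 and 0.675 RPKM in DMSO libraries 1 to 3 and at 1.65, 1.896 and 1.15 in FP54 libraries 1 to 3. The treated values were all higher, with a log2 fold change of 0.88 ± 0.26 (SE), adjusted p = 0.0424, though from a mean below 1 RPKM. IFIT1 in NB4 cells measured 7.22, 6.15 and 7.01 RPKM with DMSO and 7.65, 10.2 and 8.904 RPKM with FP54. These also did not overlap, but the log2 fold change of 0.38 ± 0.12 (SE), adjusted p = 0.0222 was below the fold required. Its neighbors IFIT3 and IFIT2 (chr10:89283694-89421605 for the 4 IFIT genes) were called in NB4 cells with log2 fold changes of 0.80 and 0.64, and had 0.65 and 0.52 in MOLM-13 cells without passing the p cutoff. IFIT5 had 0.41 in NB4 cells and was not called. IFIH1 was called in neither line, with log2 fold changes of 0.45 (MOLM-13) and 0.09 (NB4), nor was ADAR, with 0.26 and 0.32.

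Transcription factors of the pathway came next. STAT2 and IRF7, the factor that amplifies type I interferon transcription, rose in both lines. The MOLM-13 call was lost in 3 of 6 fits that left out 1 library for STAT2 and in 4 of 6 for IRF7. The MOLM-13 values of STAT2 were 14.1, 16.2 and 14.3 RPKM in controls and 22.96, 19.8 and 20.9 RPKM after FP54. The lowest treated library was above the highest control, with a log2 fold change of 0.51 ± 0.14 (SE), adjusted p = 0.0281. RPKM of STAT2 in NB4 cells came to 4.53, 4.12 and 3.52 (DMSO) and 7.41, 8.26 and 7.62 (FP54). The separation was wider there, with a log2 fold change of 0.92 ± 0.11 (SE), adjusted p = 9.22e-05.

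In NB4 cells IRF7 was at 4.37, 5.82 and 4.03 RPKM in DMSO libraries 1 to 3 and at 11.7, 10.6 and 10.7 in FP54 libraries 1 to 3. The treated libraries lay close together above the controls, for a log2 fold change of 1.22 ± 0.13 (SE), adjusted p = 4.22e-05. IRF7 in MOLM-13 cells measured 2.08, 3.17 and 2.45 RPKM with DMSO and 6.52, 3.41 and 4.07 RPKM with FP54. The highest control was just under the lowest treated library, and the log2 fold change was 0.81 ± 0.25 (SE), adjusted p = 0.0479. IRF9, the DNA-binding subunit of ISGF3, was listed at no more than 0.0564 RPKM in any MOLM-13 library and 0.0828 in any NB4 library, which is 0 to 7 reads, so no change could be read at this depth. In the annotation (GENCODE v44), 23.9% of the exon bases of IRF9 are shared with a readthrough gene on the same strand, and whether counting of shared bases lowered its value was not tested.

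The ISG15 system attaches the ubiquitin-like protein ISG15 to other proteins, through the conjugating enzyme UBE2L6 and the ligase HERC5, and USP18 removes it and also blocks the interferon receptor. The NB4 values of ISG15 were 30.4, 42.5 and 30.8 RPKM in controls and 74.9, 78.4 and 58.2 RPKM after FP54. Every treated library exceeded every control, with a log2 fold change of 1.03 ± 0.15 (SE), adjusted p = 0.000239. RPKM of ISG15 in MOLM-13 cells came to 4.53, 4.46 and 4.59 (DMSO) and 7.99, 6.53 and 6.33 (FP54). Controls were tight and all below the treated libraries, with a log2 fold change of 0.60 ± 0.15 (SE), adjusted p = 0.0246. This MOLM-13 call was lost with limma-voom and in 3 of 6 fits that left out 1 library. In NB4 cells UBE2L6 was at 10.4, 12.02 and 8.899 RPKM in DMSO libraries 1 to 3 and at 27.5, 25.4 and 24.7 in FP54 libraries 1 to 3. This was a clear separation, with a log2 fold change of 1.31 ± 0.11 (SE), adjusted p = 8.79e-06. UBE2L6 in MOLM-13 cells measured 5.95, 5.56 and 4.78 RPKM with DMSO and 9.73, 5.07 and 6.25 RPKM with FP54. These overlapped, since FP54 library 2 was below 2 of the controls, and the log2 fold change of 0.32 ± 0.23 (SE), adjusted p = 0.345 was not called.

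USP18 went the other way in MOLM-13 cells. The MOLM-13 values of USP18 were 1.79, 2.23 and 1.93 RPKM in controls and 1.11, 1.51 and 0.731 RPKM after FP54. All treated libraries were below the controls, with a log2 fold change of −0.82 ± 0.26 (SE), adjusted p = 0.0481. This call held in 1 of 6 fits that left out 1 library, and was lost with no filter and with either other scaling. RPKM of USP18 in NB4 cells came to 4.43, 3.897 and 4.11 (DMSO) and 5.92, 5.498 and 4.22 (FP54). One treated library was below the highest control, and the log2 fold change of 0.31 ± 0.13 (SE), adjusted p = 0.0734 was not called. HERC5 was called in neither line, at 1.44 and 1.12 RPKM (DMSO and FP54 means) in MOLM-13 cells and 11.4 and 11.3 RPKM in NB4 cells, while HERC6, which lies beside it at chr4:88378739-88506163, rose in NB4 cells from a mean of 1.70 to 2.86 RPKM (log2 fold change 0.72) and had 0.53 in MOLM-13 cells, not called. USP18 has a close copy in the genome, USP41, so reads of the 2 genes may have been split or set aside in counting.

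**Figure D2:**
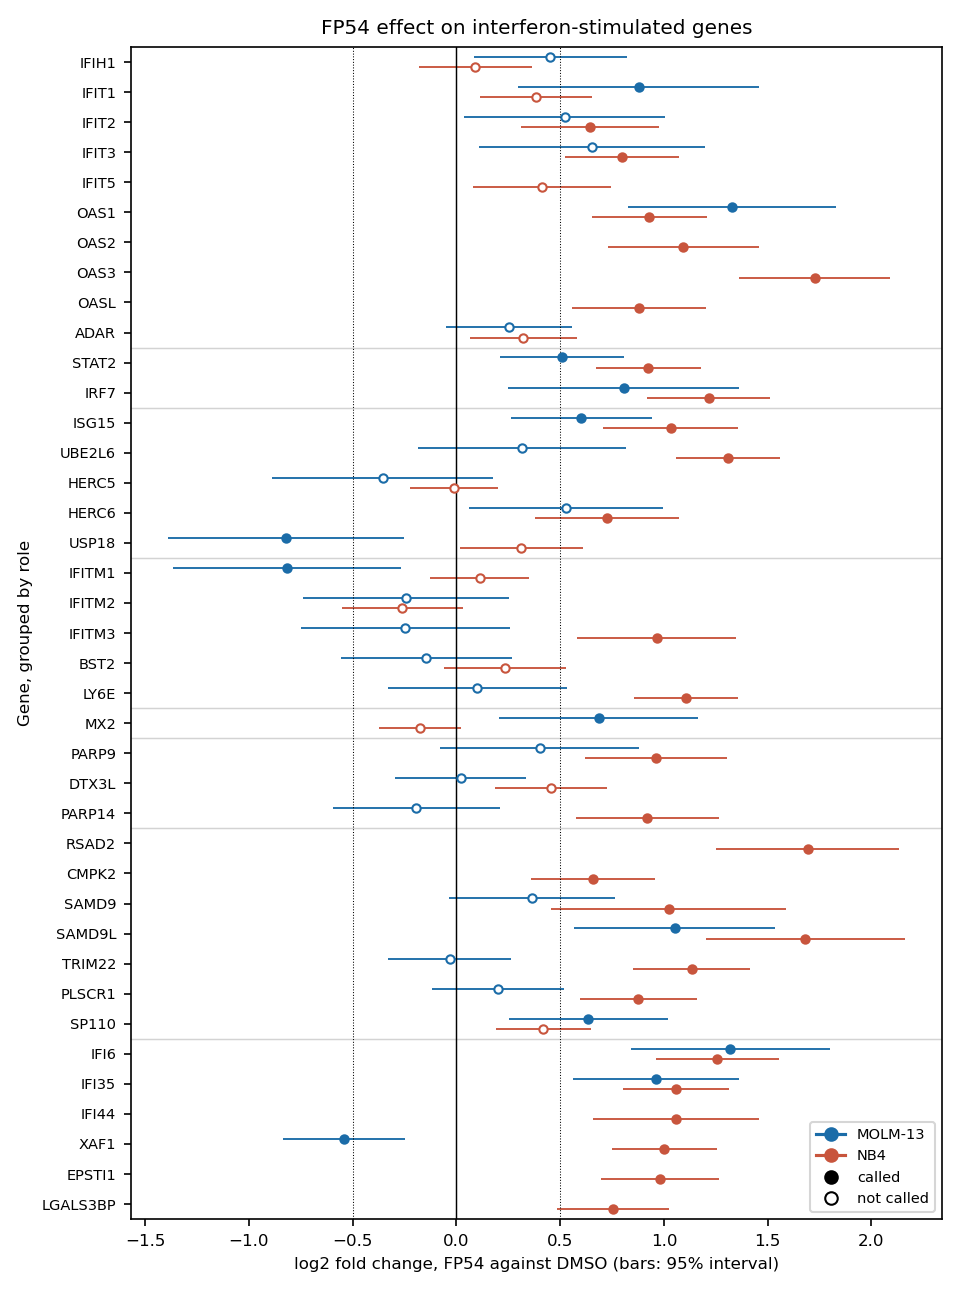
Points are limma log2 fold changes (FP54 against DMSO, horizontal axis) with 95% intervals for each member tested in MOLM-13 (blue) or NB4 cells (red), filled where called, and dotted lines mark 0.5 in either direction. NB4 points lie mostly to the right of 0.5, up to 1.73 for OAS3, and MOLM-13 points run from −0.82 for USP18 to 1.33 for OAS1.

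Among membrane proteins that act on viral entry or release, the IFITM family, tetherin (BST2) and LY6E, 2 of 5 rose in NB4 cells (LY6E and IFITM3) and 1 of 5 fell in MOLM-13 cells (IFITM1). In MOLM-13 cells IFITM1 was at 2.39, 1.77 and 2.28 RPKM in DMSO libraries 1 to 3 and at 1.53, 0.824 and 1.25 in FP54 libraries 1 to 3. The fall in all 3 treated libraries gave a log2 fold change of −0.82 ± 0.25 (SE), adjusted p = 0.0444. The call was lost with limma-voom, with no filter and in 4 of 6 fits that left out 1 library. IFITM1 in NB4 cells measured 16.9, 17.5 and 13.97 RPKM with DMSO and 15.97, 18.8 and 17.4 RPKM with FP54. Treated and control libraries overlapped, and the log2 fold change was 0.11 ± 0.11 (SE), adjusted p = 0.406. The NB4 values of IFITM3 were 0.647, 0.693 and 0.598 RPKM in controls and 1.06, 1.42 and 1.64 RPKM after FP54. These were separate, with a log2 fold change of 0.96 ± 0.17 (SE), adjusted p = 0.00101, although the gene was close to the minimum level.

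RPKM of IFITM3 in MOLM-13 cells came to 2.04, 1.49 and 1.68 (DMSO) and 1.63, 1.09 and 1.67 (FP54). Here the groups overlapped, with a log2 fold change of −0.25 ± 0.23 (SE), adjusted p = 0.469. In MOLM-13 cells IFITM2 was at 14, 9.55 and 10.7 RPKM in DMSO libraries 1 to 3 and at 11.2, 6.73 and 11.3 in FP54 libraries 1 to 3. No separation was seen, with a log2 fold change of −0.24 ± 0.22 (SE), adjusted p = 0.468. IFITM2 in NB4 cells measured 44.9, 51.9 and 34.5 RPKM with DMSO and 37.02, 37.2 and 33.9 RPKM with FP54. FP54 libraries 1 and 2 exceeded the lowest control, and the log2 fold change of −0.26 ± 0.13 (SE), adjusted p = 0.122 was the lowest of any member in NB4 cells without being called. The 3 genes sit within 26 kb at chr11:303655-329475 and are similar in sequence, and 21.1% of the exon bases of IFITM1 are shared with a readthrough gene, so reads may be divided among them or left out.

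The NB4 values of LY6E were 6.497, 8.02 and 6.02 RPKM in controls and 14.3, 15.4 and 14.6 RPKM after FP54. Every treated library lay far above the highest control, with a log2 fold change of 1.11 ± 0.11 (SE), adjusted p = 2.77e-05. In MOLM-13 cells its means were 11.2 and 12.3 RPKM and the groups overlapped. BST2 was the most abundant member in MOLM-13 cells under either treatment (156 and 143 RPKM) and the most abundant in NB4 cells (133 and 154 RPKM), and was called in neither.

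The dynamin-like GTPase MX2, which acts on nuclear import of viruses, rose in MOLM-13 cells and was not called in NB4 cells. RPKM of MX2 in MOLM-13 cells came to 1.36, 1.64 and 1.12 (DMSO) and 2.74, 1.98 and 2.08 (FP54). The groups were separate, with a log2 fold change of 0.69 ± 0.22 (SE), adjusted p = 0.0496. In NB4 cells MX2 was at 10.1, 9.32 and 10.3 RPKM in DMSO libraries 1 to 3 and at 9.07, 8.47 and 8.73 in FP54 libraries 1 to 3. All 3 treated libraries were below the controls, but the log2 fold change of −0.17 ± 0.09 (SE), adjusted p = 0.125 was not called. Its neighbor MX1 (chr21:41361999-41470071) was under the minimum in both lines, and in both its 3 FP54 libraries were above the controls: 0.282, 0.501 and 0.356 against 1.104, 1.097 and 1.01 RPKM in MOLM-13 cells, and 0.390, 0.326 and 0.304 against 1.16, 0.975 and 0.838 RPKM in NB4 cells. GBP1 had 0 reads in each MOLM-13 DMSO library and 0 to 1 in each FP54 library.

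PARP9, an ADP-ribosyltransferase family member, its ubiquitin ligase partner DTX3L and PARP14 lie together at chr3:122527924-122730840. In NB4 cells PARP9 and PARP14 rose, with log2 fold changes of 0.96 and 0.92, and DTX3L had 0.45, just under the fold required. In MOLM-13 cells 0 of the 3 were called, at an unadjusted p below 0.05 or with limma-voom as well. PARP14 in NB4 cells measured 6.12, 3.88 and 4.805 RPKM with DMSO and 8.396, 10.5 and 9.05 RPKM with FP54. All treated libraries were higher, with a log2 fold change of 0.92 ± 0.16 (SE), adjusted p = 0.000703. The MOLM-13 values of PARP14 were 4.36, 6.19 and 4.35 RPKM in controls and 4.301, 3.89 and 4.66 RPKM after FP54. The groups overlapped, with a log2 fold change of −0.19 ± 0.18 (SE), adjusted p = 0.482. PARP9 and DTX3L are transcribed away from each other and share 139 exon bases, so the element printed for PARP9 is also in the DTX3L promoter window.

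Factors that act on replication inside the cell were the second largest group tested in NB4 cells, where 6 of 7 rose (RSAD2, SAMD9L, TRIM22, SAMD9, PLSCR1 and CMPK2) and SP110 did not pass the fold. RPKM of RSAD2 in NB4 cells came to 0.633, 0.365 and 0.380 (DMSO) and 1.68, 1.898 and 1.45 (FP54). RSAD2 encodes viperin, which makes a chain-terminating nucleotide, and its log2 fold change was 1.69 ± 0.20 (SE), adjusted p = 6.63e-05 without overlap. With an NB4 DMSO mean of 0.459 RPKM, it entered the test only through its FP54 libraries. In MOLM-13 cells RSAD2 stayed below 1 RPKM at 0.267, 0.423 and 0.346 against 0.764, 0.697 and 0.911, also without overlap. CMPK2, its neighbor at chr2:6840570-6898239 on the opposite strand, rose in NB4 cells with a log2 fold change of 0.66. The 2 genes share 351 exon bases, and whether strand was used in counting is not stated.

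In MOLM-13 cells SAMD9L was at 4.29, 5.27 and 2.84 RPKM in DMSO libraries 1 to 3 and at 9.004, 7.34 and 8.998 in FP54 libraries 1 to 3. SAMD9L, a growth-restraining protein, was higher in all treated libraries, with a log2 fold change of 1.05 ± 0.22 (SE), adjusted p = 0.0116. SAMD9L in NB4 cells measured 4.56, 2.36 and 2.27 RPKM with DMSO and 9.25, 9.42 and 9.96 RPKM with FP54. DMSO library 1 was above the other two controls and still far below the treated libraries, for a log2 fold change of 1.68 ± 0.22 (SE), adjusted p = 0.000124. SAMD9, beside it at chr7:93099513-93148385, showed the same high DMSO library 1 in NB4 cells (15.3 RPKM against 8.23 and 6.02), with a log2 fold change of 1.02 there and 0.36 in MOLM-13 cells, the latter not called. SP110, a nuclear body protein, rose in MOLM-13 cells from a mean of 5.95 to 9.32 RPKM (log2 fold change 0.63) and had 0.42 in NB4 cells.

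The NB4 values of TRIM22 were 3.49, 2.82 and 3.08 RPKM in controls and 7.42, 7.61 and 5.97 RPKM after FP54. TRIM22, a ubiquitin ligase that represses viral transcription, was higher in all treated libraries, with a log2 fold change of 1.13 ± 0.13 (SE), adjusted p = 4.79e-05. RPKM of TRIM22 in MOLM-13 cells came to 11.1, 11.8 and 10.7 (DMSO) and 10.9, 11.5 and 10.4 (FP54). These values overlapped throughout, with a log2 fold change of −0.03 ± 0.13 (SE), adjusted p = 0.886. PLSCR1 had means of 6.01 and 11.1 RPKM in NB4 cells (log2 fold change 0.88) and of 12.9 and 14.9 RPKM in MOLM-13 cells (0.20, not called).

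The remaining 8 members include the mitochondrial protein IFI6, IFI35, which binds NMI, the pro-apoptotic XAF1 and the secreted LGALS3BP. In NB4 cells all 6 that were tested rose (IFI6, IFI35, IFI44, XAF1, EPSTI1 and LGALS3BP, with log2 fold changes from 0.75 to 1.26). In NB4 cells IFI6 was at 54.6, 65.5 and 44.2 RPKM in DMSO libraries 1 to 3 and at 126, 144 and 120 in FP54 libraries 1 to 3. IFI6 was the most abundant member after BST2 in that line, and the log2 fold change was 1.26 ± 0.13 (SE), adjusted p = 3.37e-05. IFI6 in MOLM-13 cells measured 7.104, 5.64 and 8.93 RPKM with DMSO and 18.1, 22.7 and 13.9 RPKM with FP54. No overlap was seen here, with a log2 fold change of 1.32 ± 0.22 (SE), adjusted p = 0.00483.

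The MOLM-13 values of IFI35 were 4.08, 2.73 and 3.95 RPKM in controls and 6.999, 6.92 and 6.96 RPKM after FP54. The treated libraries were within 0.1 RPKM of each other and above all controls, for a log2 fold change of 0.96 ± 0.18 (SE), adjusted p = 0.0084. RPKM of IFI35 in NB4 cells came to 2.35, 2.49 and 2.03 (DMSO) and 4.77, 5.13 and 4.69 (FP54). The change was of like size, with a log2 fold change of 1.06 ± 0.11 (SE), adjusted p = 3.87e-05. EPSTI1 was just below the minimum in MOLM-13 cells, with 0.295, 0.561 and 0.363 RPKM in the controls and 1.51, 1.64 and 1.3 after FP54, and rose in NB4 cells from a mean of 4.04 to 8.09 RPKM.

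In MOLM-13 cells XAF1 was at 19.8, 19.9 and 18.4 RPKM in DMSO libraries 1 to 3 and at 12.7, 12.7 and 14.5 in FP54 libraries 1 to 3. XAF1 fell in every treated MOLM-13 library, with a log2 fold change of −0.54 ± 0.13 (SE), adjusted p = 0.0207. XAF1 in NB4 cells measured 7.21, 6.17 and 6.21 RPKM with DMSO and 11.97, 15.2 and 12.5 RPKM with FP54. It rose in every treated NB4 library, with a log2 fold change of 1.00 ± 0.11 (SE), adjusted p = 5.56e-05. XAF1 was the 1 member called in opposite directions in the 2 lines, a pattern (higher in NB4, lower in MOLM-13) that 0.768% of the 8849 genes tested in both showed. The MOLM-13 mean went from 19.4 to 13.3 RPKM and the NB4 mean from 6.53 to 13.2 RPKM, so the 2 lines were close after treatment.

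**Figure D3:**
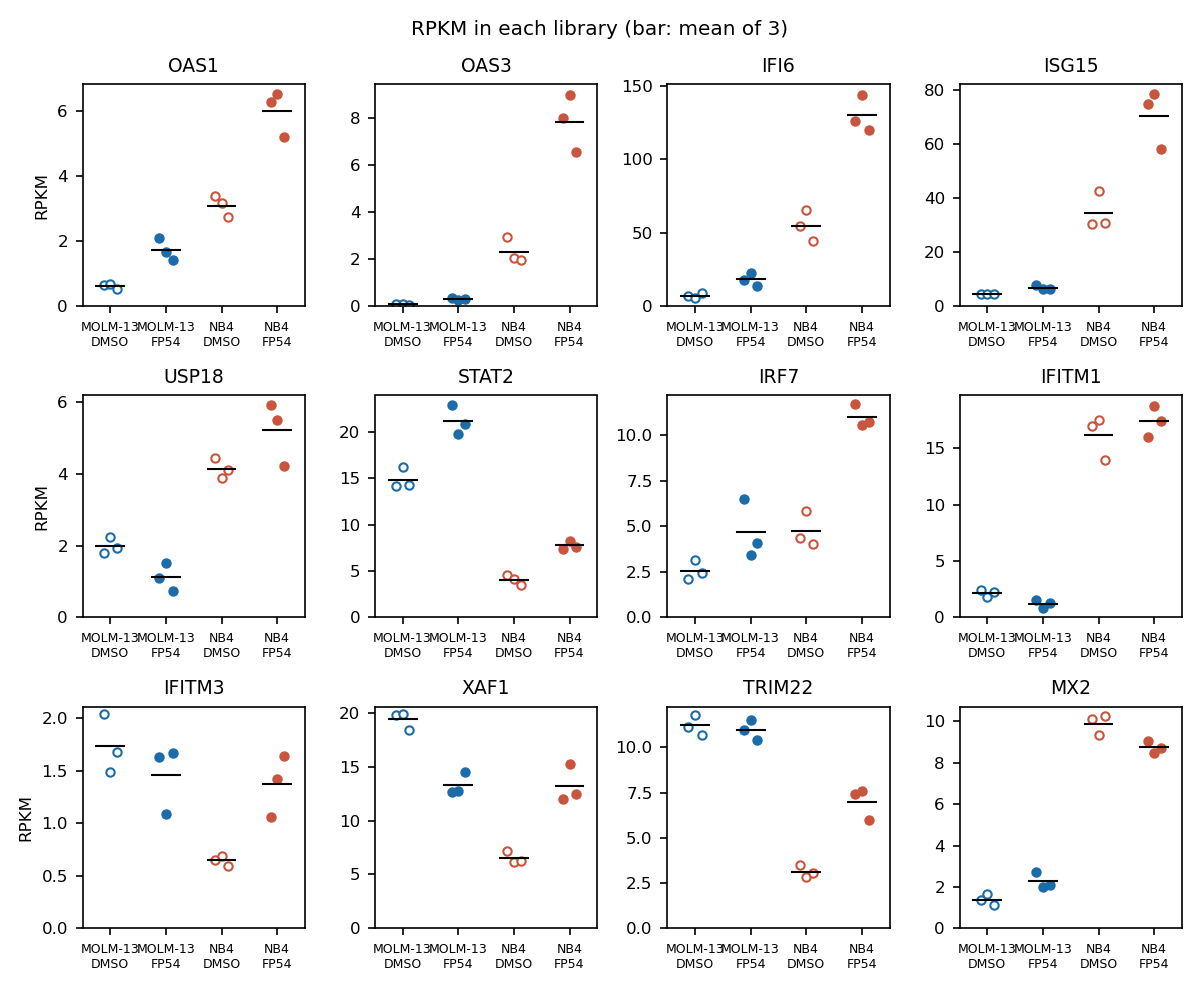
Circles give the RPKM of each library (vertical axes from 0) for 12 members, open for DMSO and filled for FP54, blue for MOLM-13 and red for NB4, with bars at the mean of 3. XAF1 fell in blue and rose in red, TRIM22 and IFITM3 rose in red alone, MX2 rose in blue alone, and OAS1, IFI6, ISG15, STAT2 and IRF7 rose in both.

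To ask whether the response differed between the lines, the FP54 effect in NB4 cells minus that in MOLM-13 cells was tested for the 30 members measured in both (interaction term, 12 libraries, adjusted p below 0.05 over 8849 genes). The difference was above 0 in 9 members, against 10.5% of all genes, and below 0 in 1, against 3.75%. With quantile normalization these counts were 8 and 2 members, against 9.45% and 10.3% of all genes. The 9, with the difference on the log2 scale, were XAF1 (1.55 ± 0.17 SE), IFITM3 (1.21 ± 0.28), TRIM22 (1.17 ± 0.18), USP18 (1.13 ± 0.29), PARP14 (1.11 ± 0.25), LY6E (1.01 ± 0.24), UBE2L6 (0.99 ± 0.27), IFITM1 (0.93 ± 0.27) and PLSCR1 (0.68 ± 0.19). MX2 was the 1 below 0, at −0.86 ± 0.22. Adjusted p ran from 3.23e-05 for XAF1 to 0.0311 for IFITM1, with MX2 at 0.0162. IFITM3 had an NB4 DMSO mean of 0.646 RPKM and entered this test only through its NB4 FP54 libraries.

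The 9 members whose effect was higher in NB4 cells were of different kinds in MOLM-13 cells. XAF1, USP18 and IFITM1 had fallen there, and IFITM3, TRIM22, PARP14, LY6E, UBE2L6 and PLSCR1 were not called there. Of the 9, 7 rose in NB4 cells, and USP18 and IFITM1 were not called in that line, so for those 2 the difference rests on the fall in MOLM-13 cells. For the other 20 members the difference was not called, with 95% intervals that lay between −1.09 and 1.41. Those of IFI6 (−0.06, interval −0.66 to 0.53), IFI35 (0.10, interval −0.36 to 0.55) and ADAR (0.07, interval −0.31 to 0.45) were near 0, while those of STAT2 (0.41) and ISG15 (0.43) missed the threshold at adjusted p of 0.128 and 0.204.

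**Figure D4:**
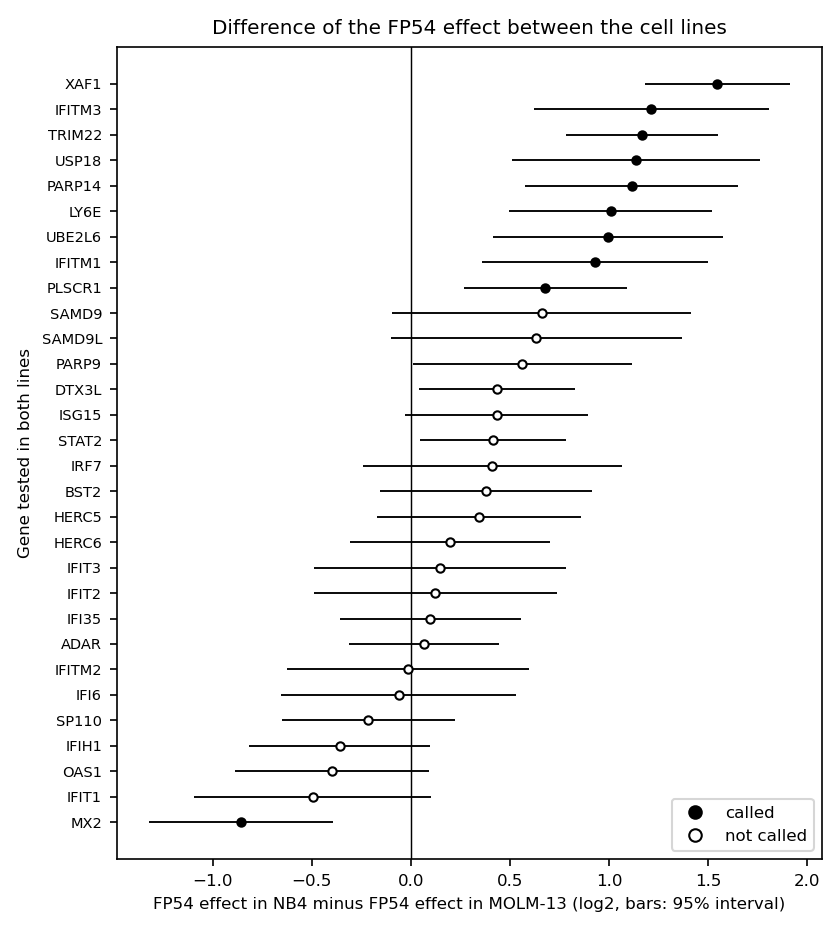
The horizontal axis is the log2 FP54 effect in NB4 cells minus that in MOLM-13 cells for each of the 30 members tested in both, with 95% intervals, filled where the adjusted p was below 0.05. Filled points lie at MX2 (−0.86) on the left and from PLSCR1 (0.68) to XAF1 (1.55) on the right.

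Counting calls in both lines, 7 members were higher in both (4.09% of all genes), 0 were lower in both (3.2% of all genes), 11 were higher in NB4 cells and not called in MOLM-13 cells (12.1% of all genes), and 3 were higher in MOLM-13 cells and not called in NB4 cells (IFIT1, MX2 and SP110, against 3.66% of all genes). The 7 were OAS1, STAT2, IRF7, ISG15, SAMD9L, IFI6 and IFI35. OAS1 and IFIT1 passed the minimum in MOLM-13 cells only through their FP54 libraries. With 1 library left out, the MOLM-13 calls of STAT2 and ISG15 were each lost in 3 of 6 fits. Those of IRF7, IFIT1, MX2 and SP110 were each lost in 4 of 6. Of the 9 members tested in NB4 cells alone, 8 rose and IFIT5 was not called. The share called higher among all genes tested in NB4 cells alone was not counted. RSAD2, among the 8, passed the minimum through its FP54 libraries.

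Levels before treatment also differed between the lines. In the DMSO libraries, each on its own RPKM scale and set side by side without a test, 24 of the 39 members tested in 1 line or both were higher in all NB4 libraries than in all MOLM-13 libraries, 7 were lower and 8 overlapped. Over the 10714 genes tested in 1 line or both, 43.1% were higher and 36.5% lower in the same way. IFI6 had a DMSO mean of 54.8 RPKM in NB4 cells against 7.22 in MOLM-13 cells, ISG15 34.6 against 4.53, IFITM1 16.1 against 2.15, and OAS3 2.32 against 0.0897. The order was the other way for STAT2 (4.06 RPKM in NB4 cells against 14.9), XAF1 (6.53 against 19.4), TRIM22 (3.13 against 11.2) and PLSCR1 (6.01 against 12.9). The summed level of the 46 genes was 327 to 350 RPKM in the MOLM-13 DMSO libraries and 346 to 396 after FP54, ranges that overlapped, and 426 to 525 RPKM in the NB4 DMSO libraries and 686 to 786 after FP54, which did not. In MOLM-13 cells BST2 made up the largest part of that sum.

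**Figure D5:**
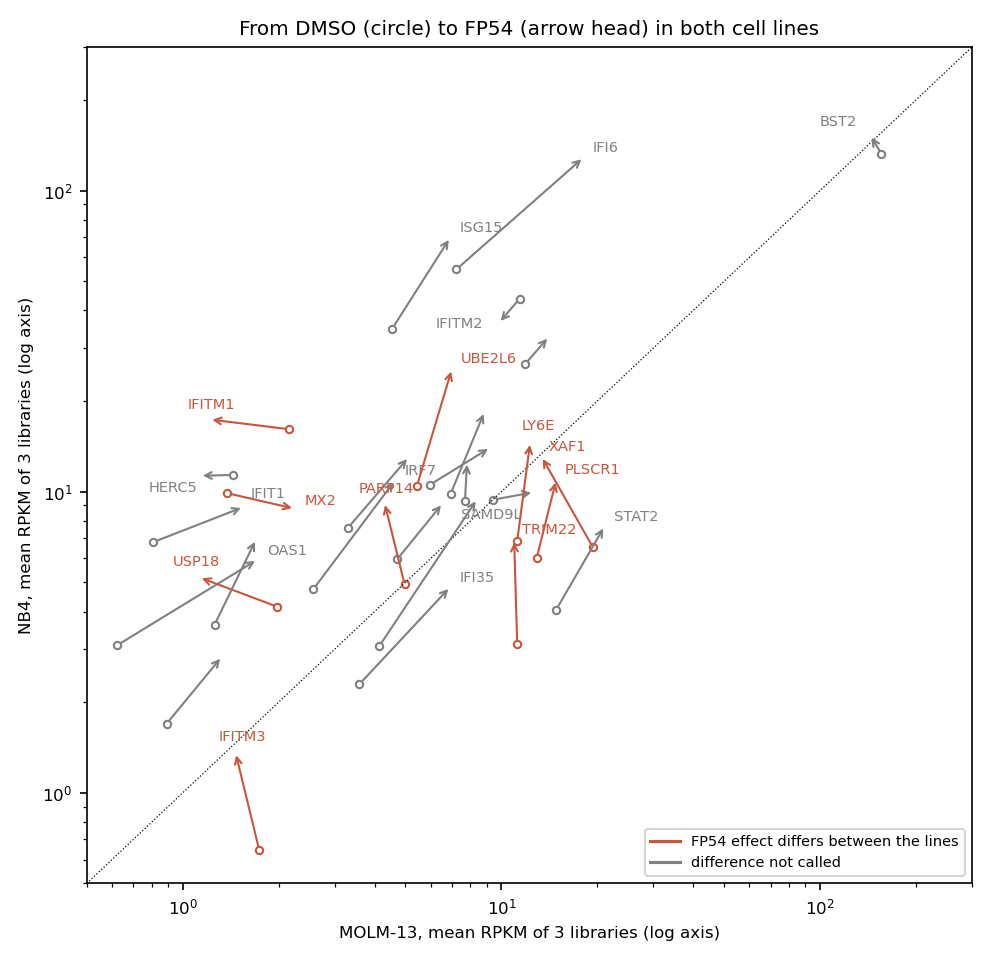
Each arrow runs from the DMSO mean (circle) to the FP54 mean (head) of one member tested in both lines, with MOLM-13 RPKM on the horizontal and NB4 RPKM on the vertical axis, both logarithmic, and the dotted line marks equal levels. Arrows of genes whose effect differed between the lines are red, and XAF1 ended close to the dotted line, at 13.3 and 13.2 RPKM.

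The members under 1 RPKM were not tested. In MOLM-13 cells 16 were in this class, with 0 to 381 reads per library, and in 12 of them all FP54 libraries were above all DMSO libraries, while the other 4 overlapped (IFIT5, ISG20, IRF9 and GBP1). Of all 6578 genes below the minimum with a value above 0 in this line, 10.1% had FP54 above DMSO in this way. That class includes genes with a value in only 1 library, which cannot separate, and among tested genes the share was 20.2%. In NB4 cells 7 were in this class, with 0 to 292 reads, and 6 had FP54 above DMSO in all libraries, as did 53.2% of all 7937 genes of this class in that line. DDX60 went from 0.690, 0.395 and 0.426 to 1.42, 1.43 and 1.29 RPKM in NB4 cells, ISG20 from 0.229, 0.176 and 0.143 to 0.499, 0.502 and 0.426 RPKM and IFI44L from 0.217, 0.255 and 0.158 to 0.593, 0.651 and 0.652 RPKM. IRF9 went from a mean of 0.0167 to 0.0647 RPKM in NB4 cells. The olfactory receptor level was 0.00175 to 0.00387 RPKM in the NB4 DMSO libraries and 0.0509 to 0.0544 in the NB4 FP54 libraries. The part of that background in the values of members below the minimum was not tested.

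The wider pathway was read from lists of genes that are not members. None of the 21 interferon genes reached the minimum in either line, and 20 of them had 0 reads in all 6 MOLM-13 libraries, where IFNB1 had 1 read in 1 DMSO library. In NB4 cells IFNB1 had 0 to 6 reads per DMSO library and 1 to 5 per FP54 library, so no change in IFNB1 was detectable at this depth. The mean level over the 21 genes was 0.0113 to 0.0273 RPKM in the NB4 DMSO libraries and 0.0470 to 0.0685 after FP54, without overlap, beside 0.00175 to 0.00387 and 0.0509 to 0.0544 RPKM for the olfactory receptor genes of the same libraries, and the part of that background was not tested. Of the 4 markers of plasmacytoid dendritic cells, the blood cells known for making type I interferon, LILRA4 and IL3RA were listed at 0 in all libraries of both lines, and the summed level of the 4 was 0.116 to 0.221 RPKM in the NB4 DMSO libraries and 0.697 to 0.872 in the NB4 FP54 libraries (CLEC4C 0.00953 to 0.508 in mean). The 4 T cell markers summed to 6.14 to 7.11 RPKM in the NB4 DMSO libraries and 11.2 to 11.7 after FP54, nearly all of it CD3D (6.35 to 10.3 in mean), with CD2 below 0.1. The 10 myeloid markers summed to 2319 to 2602 RPKM in the NB4 DMSO libraries and 1260 to 1332 after FP54. Of the 9 tested, 4 were called lower, the granule protein genes CTSG (log2 fold change −2.60), PRTN3 (−1.93), MPO (−0.96) and AZU1 (−0.52), and PTPRC was called higher (0.71). In MOLM-13 cells the same sum was 1496 to 1907 RPKM with DMSO and 1478 to 2160 RPKM after FP54. These NB4 sums moved with the NB4 members, and their part in the result was not tested.

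The counts for the lists that follow stand beside 9.3% of all genes called higher and 9.04% lower in MOLM-13 cells, and 18.6% and 10.7% in NB4 cells. Of 9 interferon receptor and Janus kinase genes, 2 of 8 tested rose in MOLM-13 cells (JAK1 and IL10RB) and 1 of 7 in NB4 cells (JAK1). JAK1 rose from a mean of 8.93 to 15.5 RPKM in MOLM-13 cells and from 6.77 to 10.8 in NB4 cells, and IL10RB from 1.03 to 1.77 in MOLM-13 cells.

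Of 8 inhibitors of the pathway, 0 of 8 tested were called in MOLM-13 cells with limma. At an unadjusted p below 0.05, 1 was higher and 2 lower, without a share of all genes counted. With limma-voom 0 were higher and 1 lower, against 10.49% and 9.79% of all genes. In NB4 cells SOCS1 rose (0.893 to 1.71 RPKM) and CISH fell (4.59 to 2.48 RPKM) among 7 tested. Among genes that sense nucleic acid or relay that signal, CGAS and STING1 fell in MOLM-13 cells (17.3 to 10.9 and 7.67 to 5.39 RPKM) among 12 tested. In NB4 cells 3 of 12 rose, DHX58 (log2 fold change 1.47), TICAM1 (1.10) and MYD88 (0.54).

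The list kept for type II interferon holds genes that need not be specific to it. GBP2 (log2 fold change 0.94) and TNFSF10 (0.69) rose and IRF8 (−0.52) fell among 9 of its genes tested in MOLM-13 cells. In NB4 cells TNFSF10 (log2 fold change 1.39), ICAM1 (1.34), WARS1 (1.31) and GBP2 (0.73) rose while FCGR1A (−1.07) and CXCL10 (−0.70) fell among 10 tested. Of 25 other interferon-induced genes, 8 of 20 tested rose in NB4 cells, led by RNF213 (log2 fold change 1.98), and TRIM14 fell (−0.80). In MOLM-13 cells 2 of 20 rose, PARP10 (log2 fold change 0.97) and RNF213 (0.95), and PNPT1 fell (−1.43).

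Leaving out any 1 library gave 25 to 29 members called higher in NB4 cells, against 16.96 to 21.86% of all genes. Leaving out MOLM-13 DMSO library 1, DMSO library 3 or FP54 library 1 lowered the members called higher from 10 to 5, 5 and 3. The share of all genes called higher went from 9.3% to 7.17%, 6.11% and 5.57%. Leaving out DMSO library 1, DMSO library 3 or FP54 library 3 lowered the members called lower from 3 to 0, 1 and 1. The share of all genes called lower went from 9.04% to 5.63%, 4.76% and 10.4%. Without FP54 library 2, the shallowest, 8 members were called higher and 2 lower, against 11.5% and 8.8% of all genes. The calls of IFI6, SAMD9L and IFI35 held whichever of the 6 libraries was left out, and that of OAS1 in the 5 fits that tested it, since it was below the minimum without FP54 library 1. For the difference between the lines, leaving out NB4 FP54 library 2 lowered the members above 0 from 9 to 4. The share of all genes above 0 went from 10.5% to 6.89%. Leaving out MOLM-13 DMSO library 2 raised the members below 0 from 1 to 2, while the share of all genes went from 3.75% to 3.91%. The differences of XAF1, TRIM22, PARP14, LY6E and MX2 passed in all 12 fits that left out 1 library, and that of IFITM3 in the 9 that tested it. Those of PLSCR1, IFITM1, UBE2L6 and USP18 were lost in 7, 5, 4 and 2 of the 12. With 3 libraries against 3, an exact permutation test of a single gene cannot give a p below 0.1.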

How the data were processed

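The authors trimmed reads with Cutadapt (version 4.8), removed duplicates, aligned to hg38 with STAR (version 2.7.11b), counted protein-coding GENCODE genes with featureCounts (version 2.0.3) and deposited RPKM. The 12 RNA-seq libraries of MOLM-13 and NB4 cells were used, and the other 10 of the 22 samples (m6A-seq and polysome-seq) were not analysed here. The cell line of each table was taken from the table's name and treatment and replicate from its columns.

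In R (version 4.3.3), log2(RPKM + 0.1) was fitted with limma (version 3.58.1, eBayes with trend) over genes with a mean of at least 1 RPKM. Genes were called by the study's cutoff, a p below 0.01 and a change of 0.5 or more on the log2 scale, and adjusted p-values are Benjamini-Hochberg values over all genes tested. Fold changes on this scale understate those of low genes. The study's methods used a count test, but the files hold RPKM, so limma was chosen. Differences between the lines are the interaction term of 1 model over 12 libraries. The fits were tested on simulated data. Reads were recovered as RPKM times GENCODE v44 exon length, and 98.5 to 99.2% of values below 50 reads were whole within 0.05. RefSeq promoters were searched in Python (version 3.11.15).

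The members, lists, tests and alternatives were chosen with earlier results of these data known. Values by library are given for the 6 largest increases and 4 largest decreases called in each line, the 6 largest differences between the lines, and STAT2, IRF9, IRF7, ISG15, USP18, IFITM1, IFITM2 and IFITM3. A gene of the pathway lists is not reported here. Other members given by library (EPSTI1, MX1, MX2, DDX60, ISG20 and IFI44L) were picked after their values were seen. Alternatives were other pseudocounts, filters, scalings, a replicate block, no trend, limma-voom and leaving out each library.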

Additional observations from a re-analysis of the deposited data

Results flagged for a closer look

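For 10 members the FP54 effect differed between the cell lines by the interaction test, with adjusted p below 0.05 over all genes tested in both, and these are the results set apart for a closer look. The effect in NB4 cells minus that in MOLM-13 cells, on the log2 scale, was 1.55 for XAF1, 1.21 for IFITM3, 1.17 for TRIM22, 1.13 for USP18, 1.11 for PARP14, 1.01 for LY6E, 0.99 for UBE2L6, 0.93 for IFITM1, 0.68 for PLSCR1 and −0.86 for MX2. IFITM3, with an NB4 DMSO mean of 0.646 RPKM, entered the test only through its NB4 FP54 libraries. XAF1 fell in MOLM-13 cells and rose in NB4 cells, and was the 1 member called in opposite directions. IFITM1 and USP18 fell in MOLM-13 cells and were not called in NB4 cells, where their log2 fold changes were 0.11 and 0.31. In 12 fits that each left out 1 library, the differences of PLSCR1, IFITM1, UBE2L6 and USP18 were lost in 7, 5, 4 and 2. Groups of 3 libraries are too small for a search for single outlying samples.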

How the results depend on the processing

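In NB4 cells the count of members called higher ran from 24 to 27 over the alternatives with all libraries and the same minimum level. These alternatives called 12.99 to 19.15% of all genes higher. The count of members was 29 of 46 with no filter and 18 of 28 tested at a mean of at least 5 RPKM, and 0 were called lower in each. Of all genes, 20.9% were called higher and 4.66% lower with no filter, and 12.3% and 13.06% at 5 RPKM. Leaving out 1 library gave 25 to 29 higher and 0 lower in NB4 cells, against 16.96 to 21.86% and 10.04 to 11.13% of all genes. In MOLM-13 cells it gave 3 to 14 higher and 0 to 2 lower, against 5.57 to 11.52% and 4.76 to 12.45% of all genes. In MOLM-13 cells a minimum of 5 RPKM gave 6 higher and 1 lower of 18 tested, against 8.38% and 9.22% of all genes. No filter gave 11 higher and 1 lower of 46, against 3.96% and 2.6% of all genes. When 1 library was left out, the difference between the lines was above 0 in 4 to 11 members, against 6.89 to 12.91% of all genes. It was below 0 in 1 to 2 members, against 2.26 to 5.06% of all genes. At 5 RPKM the difference was above 0 in 5 and below 0 in 0 members, against 8.51% and 3.96% of all genes. With quantile normalization it was below 0 in 2, against 10.3% of all genes, since OAS1 then passed. Subtracting the olfactory receptor level, an alternative chosen after seeing the data, left 27 higher in NB4 cells and 10 higher and 3 lower in MOLM-13 cells. That level was at most 0.0544 RPKM and the genes tested had a mean of at least 1 RPKM. These counts could therefore hardly move, and they do not measure the background. No called single-gene effect changed sign under the alternatives run. With all libraries in, the 13 members called in MOLM-13 cells lost their call in 19 of 137 refits and the 27 called in NB4 cells in 6 of 288, and with 1 library left out in 32 of 77 and 1 of 156. Except for fewer genes or samples, the cause was not tested.

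The correlations of same-numbered deviations were −0.26, −0.13 and −0.06 in MOLM-13 cells and −0.14, 0.07 and 0.12 in NB4 cells. Between different numbers in MOLM-13 cells they were 0.59 (DMSO 1 with FP54 3), 0.49 (DMSO 2 with FP54 1) and 0.47 (DMSO 3 with FP54 2). The other MOLM-13 pairs of different numbers ran from −0.46 to −0.27, and those in NB4 cells from −0.26 to 0.22. Whether libraries were paired under other numbers was not tested, so a block by replicate number may not follow the true pairs. With the replicate number as a block, 7 members were called higher and 3 lower in MOLM-13 cells, against 8.41% and 9.06% of all genes. In NB4 cells 27 were higher and 0 lower, against 18.9% and 10.66% of all genes. In the difference 8 were above 0 and 1 below 0, against 7.7% and 2.46% of all genes.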
